A study of Ceratotherium simum simum with 6 samples.

Results

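Genes that were assembled with 3 or more isoforms were examined in granulosa cells of the southern white rhinoceros (Ceratotherium simum simum). A named gene was taken when its own transcripts, or those of an unnamed gene on the opposite strand that covered at least 50% of the shorter exonic length, numbered 3 or more in the deposited table of transcript positions. By that rule 2544 of 22569 named genes (11.27%) were members, out of 40656 assembled genes and 55787 transcripts in all. Because isoform numbers chose the members, those numbers are given below as a description. At the limit of the rule, 1766 members had 3 transcripts at most on a strand, and 5332 named genes just outside it had 2.

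Alternative first exons, alternative last exons, skipped exons and retained introns let a mammalian gene make several RNAs and often several proteins. Genes of the splicing machinery, of the cytoskeleton and of cell adhesion are well known for such forms, and heterogeneous nuclear ribonucleoproteins and SR proteins decide many of the choices. Granulosa cells, the somatic cells around the oocyte in the ovarian follicle, make oestradiol and inhibin and rest on a basement membrane, and several genes of those functions are known to have alternative transcripts.

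RNA-seq libraries came from 2 wild-type animals, rhino 1 and rhino 2, with 3 libraries each. The labels give every library as in vivo granulosa cells collected before in vitro maturation (IVM), with no other treatment or genotype. Each group was therefore 1 animal, and nothing in the labels tells how its 3 libraries were obtained from it. The p-values below therefore cover only differences among libraries, and these may be technical. Transcript-level counts were available for 5 libraries, and rhino 2 replicate 1 was available per gene and entered only the gene-level comparison.

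Depth and strand differed between libraries. Rhino 1 replicate 1 held 13288936 counts and the other 5 held between 672410 and 1523904. In rhino 1 replicate 1, 94.5% of counts lay on the strand of the gene names and 0.696% on unnamed opposite-strand models of named genes, whereas the other libraries had between 86.1% and 90.2% on the opposite-strand models. Transcript shares of rhino 1 replicate 1 thus came from another set of assembled transcripts, here called the named-strand model, than those of the other 4 libraries, which came from the opposite-strand model. Among 13 granulosa markers, 12 had counts in all 6 libraries, with a summed level of 28850 to 44770 CPM (counts scaled to a fixed library total) in rhino 1 and 26850 to 41340 CPM in rhino 2, of which GDN alone was 13150 to 24470 CPM. The theca markers CYP17A1 and INSL3 were at 0 in every library, as were 4 of 5 oocyte markers, and the fifth, GDF9, had 3.91 CPM in rhino 1 replicate 1 alone. Outside rhino 1 replicate 1, a 0 can also mean that no opposite-strand model was joined to the marker. The leukocyte markers PTPRC and CD3E likewise had counts in rhino 1 replicate 1 alone (26.6 and 3.46 CPM), while CD68 had counts in both animals.

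Of the 2544 members, 1896 reached 3 transcripts on the named strand and 1119 on the opposite strand, with 471 on both. The members held 7417 named-strand transcripts, of which 3379 were annotated, and 6716 opposite-strand transcripts. A total of 778 members had 4 or more on a strand, 232 had 5 or more and 10 had 10 or more. No opposite-strand model was joined to 251 members, so their 0 counts in the 4 libraries say nothing about their RNA. A further 195 members carried more than 1 gene name and 536 had a name that stood on several loci, and counts of both kinds are uncertain.

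The longest isoform sets belonged to genes of different kinds. GSTM2, a glutathione S-transferase gene whose locus also carried the name GSTM5 (scaffold 2, 58287584 to 58371260), and PO210, the gene NUP210 of a nuclear pore protein, each had 22 opposite-strand transcripts. Others among the 10 longest were XRN2, a nuclear RNA exonuclease gene, with 14, M3K12, the kinase gene MAP3K12, with 13 on the named strand, and KTN1 (kinectin), AHNK (AHNAK) and XRCC3, a recombination gene, with 11 each. GREB1, an oestrogen-regulated gene in human and mouse, and SRRM2, the gene of a large splicing-speckle protein, had 10 each. The names PO210, XRN2 and GREB1 stood on more than 1 locus, XRN2 on 7, and the XRN2 locus counted here lay on scaffold Y_12. For M3K12 and XRCC3 the counts of the gene and of an antisense partner cannot be told apart, as described below.

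Membership was uneven over the gene lists. Of the 57 loci of splicing and RNA binding that passed the count filter, 45 (78.9%) were members, beside 26.9% of all named genes that passed it (2105 of 7822). The share was 59.1% in transcription and chromatin, 53.1% in cytoskeleton and cell adhesion, 48.3% in the genes with well-known mammalian isoforms, 34.8% in signalling and 30.0% in extracellular matrix and secreted proteins. In metabolism and steroidogenesis it was 9.38%, 3 of 32 loci. Members that passed the filter had a median of 13 exons in their longest transcript model against 9 in the other named genes that passed, a median span of 34.3 kb against 20.8 kb, and a median level of 63.2 CPM against 42.3 CPM. No test was made of the lists, and the part of exon number and level in these shares was not tested.

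**Figure D1:**
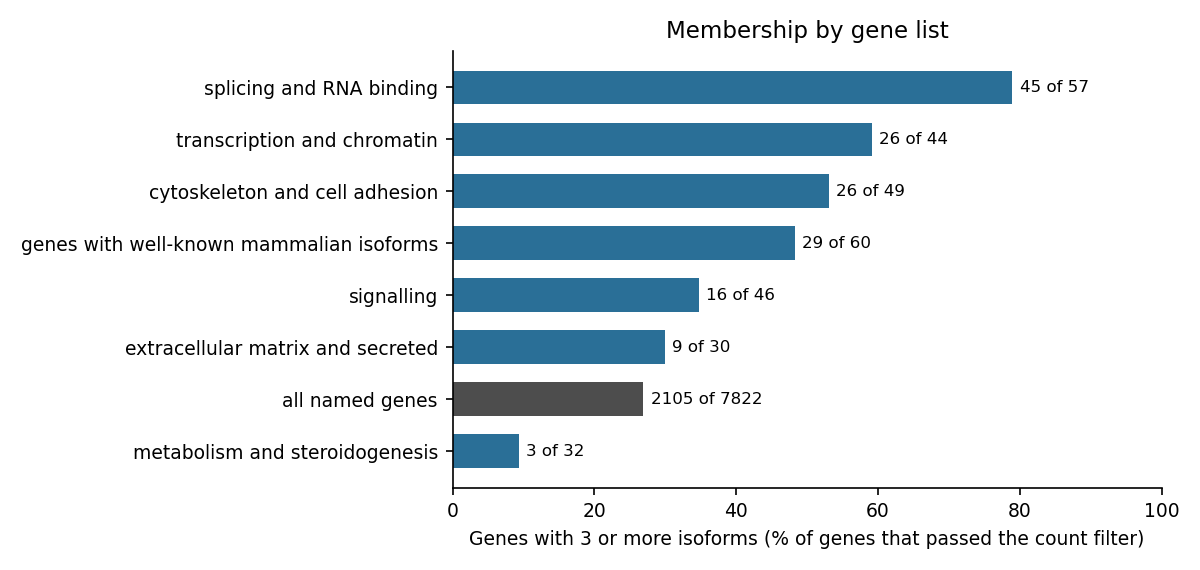
Percentage of genes that were members (3 or more assembled isoforms) in each of 7 gene lists and in all named genes, over genes that passed the count filter. Numbers beside the bars are members of genes that passed; splicing and RNA binding had the highest share (45 of 57) and metabolism and steroidogenesis the lowest (3 of 32).

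Isoforms of a member differed most often at their ends. A different first exon was found in 59.0% of the 1896 named-strand models with 3 or more transcripts and in 70.6% of the 1097 such opposite-strand models, and a different last exon in 44.7% and 49.0%. Skipped exons were found in 32.4% and 45.5%, different acceptor sites in 26.8% and 47.0%, different donor sites in 16.2% and 26.6%, and retained introns in 18.1% and 22.0%. In 50.1% of the named-strand models, but 5.01% of the opposite-strand models, 1 transcript had introns that were a stretch of another's.

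Skipped exons carried a length pattern that the choice of members had not used. In all, 1440 exons of 1024 members were present in 1 transcript and skipped by another with the same flanking splice sites. On both strand models 253 exons of 224 members appeared with identical borders. Of these, 72.7% had a length that was a multiple of 3, which keeps the reading frame, against 40.4% of the 30460 annotated internal exons of members and 40.2% of the 152674 of all named genes. Exons skipped on the named strand only were multiples of 3 in 60.8% of cases, and those skipped on the opposite strand only in 47.0%. The exons on both strands were also short, with a median of 90 bases against 122 bases in annotated internal exons of all named genes, and 26.1% of them were under 60 bases against 8.43%. By list, 14 of 47 member loci of splicing and RNA binding (29.8%) had such an exon, beside 8.81% of all members.

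Only 109 of these exons, in 93 members, had 50 or more counts in the relevant transcripts in all 5 libraries. In rhino 1 replicate 1, 82.6% of the 109 were included in between 10% and 90% of counts. In the other libraries this share was 9.17% (rhino 1 replicate 2), 34.9% (rhino 1 replicate 3), 22.0% (rhino 2 replicate 2) and 22.0% (rhino 2 replicate 3), since many exons there were included in all counts or in none. Inclusion correlated between pairs of the 4 opposite-strand libraries with r between 0.76 and 0.87 over the 109 exons, and between rhino 1 replicate 1 and each of them with r between 0.21 and 0.24. These exons share genes and libraries, and the correlations are descriptions. In the 4 libraries, 42 exons stayed at 90% or more, 15 stayed at 10% or less and 25 spanned over 50 percentage points.

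**Figure D2:**
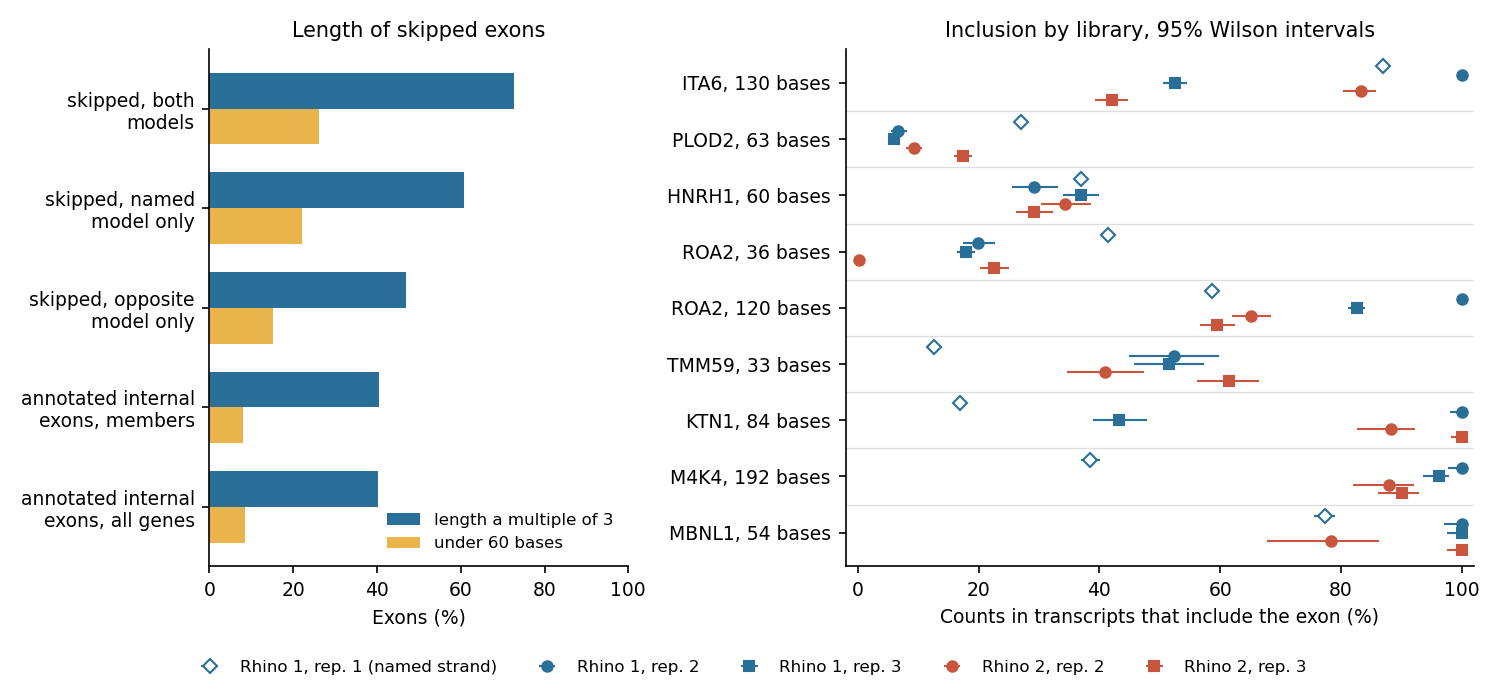
Left, percentage of exons whose length is a multiple of 3 (blue) or under 60 bases (yellow), for skipped exons by strand model and for annotated internal exons; 72.7% of the exons skipped on both models are multiples of 3, against 40.2% of annotated internal exons. Right, inclusion of 9 skipped exons in 5 libraries as a percentage of counts in the transcripts that include or skip them, with 95% Wilson intervals that cover counting error only; HNRH1 varies least among the 9 and ITA6 and KTN1 vary widely.

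Several of these exons lay in genes with well-described mammalian isoforms. ITA6, the gene ITGA6 of integrin alpha 6, exists in human and mouse in an A and a B form that differ in the cytoplasmic tail by an exon. Here a 130-base exon (scaffold 9, 32098180 to 32098309) was included in 86.9% of counts in rhino 1 replicate 1, 100% in replicate 2 and 52.5% in replicate 3, and in 83.3% and 42.0% in rhino 2 replicates 2 and 3. The animals overlapped, also among the 4 opposite-strand libraries, and the last value had a 95% Wilson interval of 39.4 to 44.8. The 25-exon and 26-exon transcripts of ITA6 were assembled with the same introns on both strands.

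PLOD2, the gene of lysyl hydroxylase 2 that modifies collagen, has a long and a short form in human and mouse that differ by 1 exon. A 63-base exon (scaffold 5, 29964500 to 29964562) was included in 27.0% of counts in rhino 1 replicate 1, 6.74% in replicate 2 and 5.98% in replicate 3, and in 9.25% and 17.4% in rhino 2 replicates 2 and 3. It was the minor form in all 5 libraries, at a depth of 1543 counts or more in each. The animals overlapped only through rhino 1 replicate 1, on the named-strand model, and in the 4 opposite-strand libraries both rhino 1 values were below both of rhino 2.

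Heterogeneous nuclear ribonucleoprotein genes showed both stable and variable exons. In HNRH1 (HNRNPH1), a 60-base and a 139-base exon were skipped together, and both were included in 37.0%, 29.2% and 36.9% of counts in rhino 1 replicates 1, 2 and 3 and in 34.4% and 29.2% in rhino 2 replicates 2 and 3. These 5 values lay within 8 points of each other although the strand models differed. In ROA2 (HNRNPA2B1), whose B1 form in mammals differs from A2 by a short exon near the start, a 36-base exon was included in 41.4%, 19.98% and 17.9% of counts in rhino 1 and in 0.241% and 22.5% in rhino 2. A 120-base exon of ROA2 was included in 58.6%, 100% and 82.6% in rhino 1 and in 65.2% and 59.5% in rhino 2. At the 36-base exon the animals overlapped. At the 120-base exon they overlapped only through rhino 1 replicate 1, on the named-strand model, and in the 4 opposite-strand libraries both rhino 1 values were above both of rhino 2. MBNL1, itself a splicing regulator that controls an exon of its own RNA in mammals, included a 54-base exon in 77.3% of counts in rhino 1 replicate 1, 78.4% in rhino 2 replicate 2 and 100% in the other 3 libraries.

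Other exons of members chosen by the same rule differed between the strand models more than among the 4 libraries of 1 model. M4K4, the kinase gene MAP4K4, included a 192-base exon in 38.5% of counts in rhino 1 replicate 1 and in 87.9% to 100% elsewhere. TMM59 (TMEM59) included a 33-base exon in 12.7% there and in 40.9% to 61.4% elsewhere. DYST, the gene of the cytoskeletal linker dystonin, included an 18-base exon in 63.5% there and in 0% elsewhere, with 91 to 186 counts in those libraries. KTN1 went against this, with an 84-base exon included in 17.0% in rhino 1 replicate 1, 43.3% in rhino 1 replicate 3 and 88.3% to 100% in the other 3.

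A few further exons were chosen after their values were seen. GBB1 (GNB1), a G protein subunit gene, included a 49-base exon in 98.6% and 97.1% of counts in replicate 2 of rhino 1 and rhino 2 and in 13.8% and 0.769% in replicate 3, with 80.8% in rhino 1 replicate 1. PUF60, a splicing factor gene, included a 51-base exon in 100% in both replicates 2 and in 1.33% and 0% in replicates 3. In the 4 opposite-strand libraries, GBB1 and PUF60 were thus split by replicate number and not by animal, and the numbers are not known to mark a shared batch. Depth was split in the same way, with 672410 and 703708 counts in the replicates 2 of rhino 1 and rhino 2 and 1449450 and 1078480 in the replicates 3. The part of depth was not tested. NUMA1, a mitotic spindle gene, skipped a 42-base exon in most counts of every library (inclusion 34.2% in rhino 1 replicate 1 and 1.30% to 5.41% elsewhere), and TRA2B, a splicing regulator, included a 276-base exon in 85.8% to 100%.

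A transcript's share is its percentage of the counts of its gene on the strand model a library used, where the gene had 50 or more counts. Longer transcripts gather more reads, so a share of counts is not a share of molecules. The minimum was reached by 2351 members in rhino 1 replicate 1, 875 in rhino 1 replicate 2, 1435 in rhino 1 replicate 3, 856 in rhino 2 replicate 2 and 1211 in rhino 2 replicate 3. It was reached in all 5 libraries by 658 members and in none by 157.

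In models with 3 or more transcripts, 1 transcript usually held most counts. The median share of the top transcript was 67.3% in rhino 1 replicate 1, 100% in rhino 1 replicate 2, 95.8% in rhino 1 replicate 3, 100% in rhino 2 replicate 2 and 99.4% in rhino 2 replicate 3. All counts lay in 1 transcript in 4.13% of members in rhino 1 replicate 1, and in 74.0%, 37.9%, 56.9% and 48.9% in the other libraries in the same order. The top transcript held under 50% in 15.6% of members in rhino 1 replicate 1 and in 2.07% to 4.48% elsewhere.

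Depth and strand moved with this difference. Members with 500 or more counts had a median top share of 98.0%, 82.4%, 85.6% and 85.4% in the 4 libraries, lower than the 100% at 50 to 99 counts in each of them. At matched depth rhino 1 replicate 1 stayed lower, with medians between 65.7% and 77.2% over 4 ranges of gene counts. Its annotated transcripts took little of the total: among 1717 members, an annotated transcript came out on top in 292 (17.0%), the median share of annotated transcripts was 4.71%, and 393 members had none of their counts on one.

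**Figure D3:**
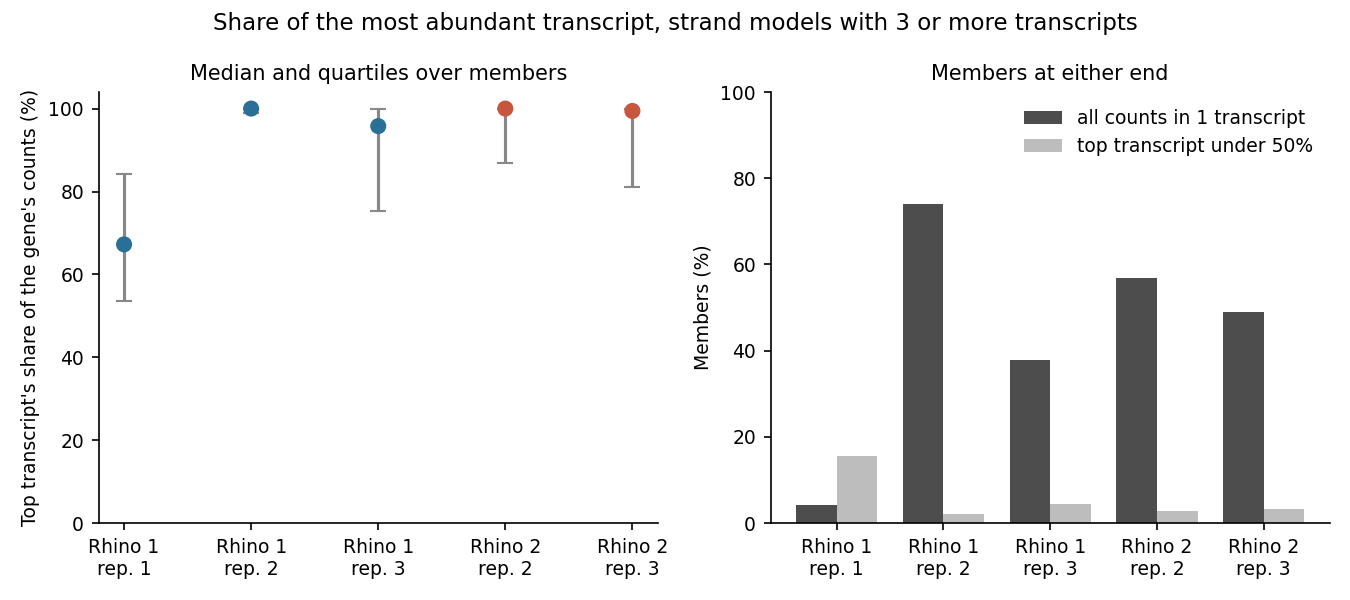
Share of the most abundant transcript in members whose strand model has 3 or more transcripts, for 5 libraries (blue rhino 1, red rhino 2). Left, median with lower and upper quartile, 67.3% in rhino 1 replicate 1 and 95.8% to 100% elsewhere; right, percentage of members with all counts in 1 transcript and with a top transcript under 50%.

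The main isoform of the named-strand model was often absent from the opposite-strand model or did not lead there. For 477 members with a spliced main transcript on both, the intron chain that led in rhino 1 replicate 1 was present in the opposite-strand model in 258 (54.1%). It also led there in 173, which is 36.3% of the 477 and 67.05% of the 258. Introns were shared far more than whole chains, with a median of 91.7% of the introns of the opposite-strand model present in the named one. Within the opposite-strand model, 258 of 419 members (61.6%) had the same top transcript in all 4 libraries and 161 did not.

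Evenly and unevenly divided genes could be named. Evenness was taken as the top share minus the share that an equal split over the transcripts of the model would give, so a gene with few transcripts can be even at a high top share. Among 224 members with 3 or more transcripts in the model of all 5 libraries, GSTM2 and UBB, and TMM59 and RBM14 with 3 or 4 transcripts a model, were among the 5 nearest to an equal split. GSTM2 had top shares of 23.6%, 33.6% and 15.85% in rhino 1 and 20.9% and 22.2% in rhino 2. UBB, a ubiquitin gene, had 42.8%, 31.1% and 32.9% in rhino 1 and 30.7% and 30.7% in rhino 2, and it consists of repeats, so reads cannot be placed in 1 repeat with certainty. At the other end AGAL (GLA, alpha-galactosidase A), L2GL1 (LLGL1, a cell polarity gene), RAD54, NMNA1 (NMNAT1, an enzyme of NAD synthesis) and ARAID had top shares of 99.5% to 100% in every library.

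These last 5 genes also broke the strand pattern. Of 680 members with 50 or more counts in the 4 libraries, 48 (7.06%) had more counts on the named strand in all 4, and rhino 1 replicate 1 had the lowest CPM of the 6 libraries in 46 of the 48, against 65 of the 629 that kept to the opposite strand in all 4. AGAL stood at 37.4 CPM in rhino 1 replicate 1 and 178.5 to 308 CPM in the others. M3K12 and XRCC3 were among the 48, with 18.6 against 481 to 728 CPM and 28.4 against 121 to 204 CPM. For such members the counts of a gene and of an antisense partner cannot be told apart, and their 2 sets of transcripts differed: in AGAL, all 446 named-strand counts of rhino 1 replicate 1 lay on an annotated 7-exon transcript and all named-strand counts of the other 4 libraries on a 12-exon transcript.

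Among genes of granulosa function, FSHR, FOXL2, AMHR2, INHBB, NR5A2 and GDN were members, while INHA, INHBA, CP19A, FST and MIS were not. FSHR, the receptor for follicle-stimulating hormone (scaffold 11, 34204528 to 34387264), had a 10-exon transcript with 79.7% and an 11-exon transcript with 20.3% of 2516 counts in rhino 1 replicate 1. On the opposite strand an 11-exon transcript held 83.5% in rhino 1 replicate 3 and 100% in both rhino 2 libraries, and rhino 1 replicate 2 had only 45 counts. FOXL2 is a transcription factor of the granulosa lineage whose annotated transcript is a single exon. At its locus a 7-exon transcript on the opposite strand held 65.7% and 76.5% of counts in rhino 1 replicates 2 and 3 and 66.1% and 68.8% in rhino 2. A 2-exon transcript there held 34.3%, 20.2%, 29.5% and 31.2% in the same order. Both belong to an unnamed gene that was joined to FOXL2 by exonic overlap. Whether they are forms of FOXL2 or of a neighbouring or antisense gene was not tested.

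INHBB, the gene of the inhibin beta B subunit, was divided between annotated transcripts of 6 exons (46.5%) and 2 exons (53.5%) in rhino 1 replicate 1. In the other libraries a 2-exon transcript with the same intron held 95.5% to 100%. NR5A2, an orphan nuclear receptor that drives steroidogenic genes, was among the most divided: a 7-exon transcript led with 52.5% of 18031 counts in rhino 1 replicate 1, and on the opposite strand the top of 9 transcripts held 82.3% and 40.7% in rhino 1 and 74.0% and 44.8% in rhino 2. A different NR5A2 transcript led in rhino 1 replicate 3 and in rhino 2 replicate 3 from that in the replicates 2. GDN, the gene SERPINE2 of the protease inhibitor protease nexin-1, had an 8-exon transcript with 79.7% of counts in rhino 1 replicate 1 and a single opposite-strand transcript.

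Genes with well-known mammalian isoforms were mostly led by 1 form. Of the 12 with the highest level, SPTN1, the gene of alpha-II spectrin, had a top share of 95.1% or more in each of the 5 libraries. PTBP1, a splicing repressor, had a top share of 62.8% in rhino 1 replicate 3 and of 99.2% or more in the other 4. In rhino 1 replicate 1 that share was fixed at 100%, since PTBP1 had only 1 named-strand transcript. CTND1, the gene of the catenin p120, was divided in rhino 1 replicate 1, where the top transcript held 46.0%, and had 98.7% or more elsewhere. GNAS, which encodes the stimulatory G protein alpha subunit, was among the most divided, with a top share of 78.5%, 27.9% and 46.2% in rhino 1 and 64.4% and 67.5% in rhino 2.

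The comparison of transcript usage between the animals asked whether the division of a gene's counts differed. It used the 4 libraries on the opposite-strand model, 2 per animal, and all 434 models with 2 or more transcripts past the filter, of which 300 belonged to members. With edgeR's diffSpliceDGE and Simes p-values, 0 members passed an adjusted p of 0.05, and percent called over all 434 models was also 0. At an unadjusted p under 0.05 by diffSpliceDGE there were 14 of the 300 members. The same count over all 434 models is not given here, and the 14 are not read as a result about the members. With DESeq2 on the same libraries, scaled by each gene's total, 14 of 283 members passed, beside 19 of 409 models in all. The F test of diffSpliceDGE gave 0.

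Shares that did not overlap between the animals were counted as a description. At least 1 transcript had no overlap, 2 libraries against 2, in 135 of 552 members (24.5%), beside 16.2% of all 1018 genes with 2 or more transcripts and 50 or more counts in each library. Mean shares differed by over 20 points in 68 members and by over 50 points in 24, and the same count over all genes is not given here. The rule gives members more transcripts per gene than the other genes have, and the part of this in the share was not tested.

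The widest such difference was in NONO, the gene of a nuclear RNA-binding protein of paraspeckles (scaffold X, 58118574 to 58125569). A 12-exon transcript had 0 of 438 and 3 of 895 counts in rhino 1 replicates 2 and 3, and all 394 and all 670 counts in rhino 2 replicates 2 and 3. An 11-exon transcript with another 5′ end had 438 and 675 counts in rhino 1 replicates 2 and 3, and 0 in both rhino 2 libraries. A further 11-exon transcript had 217 counts in rhino 1 replicate 3 alone. NONO was chosen among genes with a share that did not overlap between the animals, so the lack of overlap at the 12-exon transcript follows from the choice. The first of these 11-exon transcripts did not overlap either. The usage test gave NONO an adjusted p of 0.525 (diffSpliceDGE), and its gene-level CPM was 573 ± 109 in rhino 1 and 600 ± 34.4 in rhino 2 (SD, n = 3 each). In rhino 1 replicate 1 all 5961 counts of NONO lay on its only named-strand transcript.

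SC31A (SEC31A, a coat protein gene of vesicles leaving the endoplasmic reticulum) had a 27-exon transcript with 100% and 91.1% of counts in rhino 1 and 0% and 2.15% in rhino 2. In rhino 2 a 26-exon transcript led instead, with 208 and 258 counts against 0 and 0. IF4G1, the scaffold gene EIF4G1 of translation initiation, had a 33-exon transcript with 100% and 88.2% in rhino 1 and 4.26% and 0% in rhino 2, where a different 33-exon transcript led in each library. SRRM2 had a 14-exon transcript with 99.1% and 87.8% in rhino 1 and 7.41% and 0% in rhino 2, while another 14-exon transcript had 0 and 115 counts in rhino 1 and 475 and 667 counts in rhino 2. None passed the usage test, with adjusted p-values of 0.564 for SC31A and 1.00 for IF4G1 and SRRM2 (diffSpliceDGE).

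The other 4 of the 8 widest differences were smaller. ZN358 (ZNF358, a zinc finger gene) had a transcript with 100% and 100% in rhino 1 and 34.5% and 0% in rhino 2. CD81, a tetraspanin gene, had one with 0% and 45.4% against 100% and 100%. FACR1 (FAR1, which makes fatty alcohols) had one with 0% and 0% against 100% and 45.7%, and GDIR1 (ARHGDIA) one with 25.4% and 0% against 88.2% and 76.1%. In ZN358, which did not enter the usage test, the leading transcript differed between the rhino 2 libraries. The adjusted p-values were 0.919 for CD81, 0.917 for FACR1 and 1.00 for GDIR1 (diffSpliceDGE).

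DKK3, the gene of a secreted protein of the Dickkopf family (scaffold 7, 68924427 to 68966368), also divided differently in the animals. Its first opposite-strand transcript held 100% and 99.7% in rhino 1 and 41.2% and 37.8% in rhino 2, and DKK3 did not enter the usage test. In rhino 2 replicate 2, 1322 counts lay on a transcript with 0 counts in rhino 1 and 3 counts in rhino 2 replicate 3, and in rhino 2 replicate 3, 1924 counts lay on another transcript with 0 counts elsewhere. Summed over its transcripts, the DKK3 level was 1455 ± 523 CPM in the rhino 1 libraries against 2886 ± 309 CPM in those of rhino 2 (SD, n = 3 each), with an adjusted p of 0.2 (edgeR's quasi-likelihood test).

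TPM3, a tropomyosin gene with many known forms, did not separate the animals. Its 9-exon transcript held 50.5% of counts in rhino 1 replicate 1 (95% Wilson interval 49.4 to 51.6), 58.1% in replicate 2 (53.6 to 62.4) and 42.9% in replicate 3 (39.6 to 46.3). In rhino 2 it held 89.2% in replicate 2 (83.9 to 92.9) and 7.30% in replicate 3 (4.91 to 10.7), where the 8-exon transcript held 92.1%. The rhino 2 libraries lay on either side of all 3 of rhino 1. The name TPM3 stood on 3 loci.

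**Figure D4:**
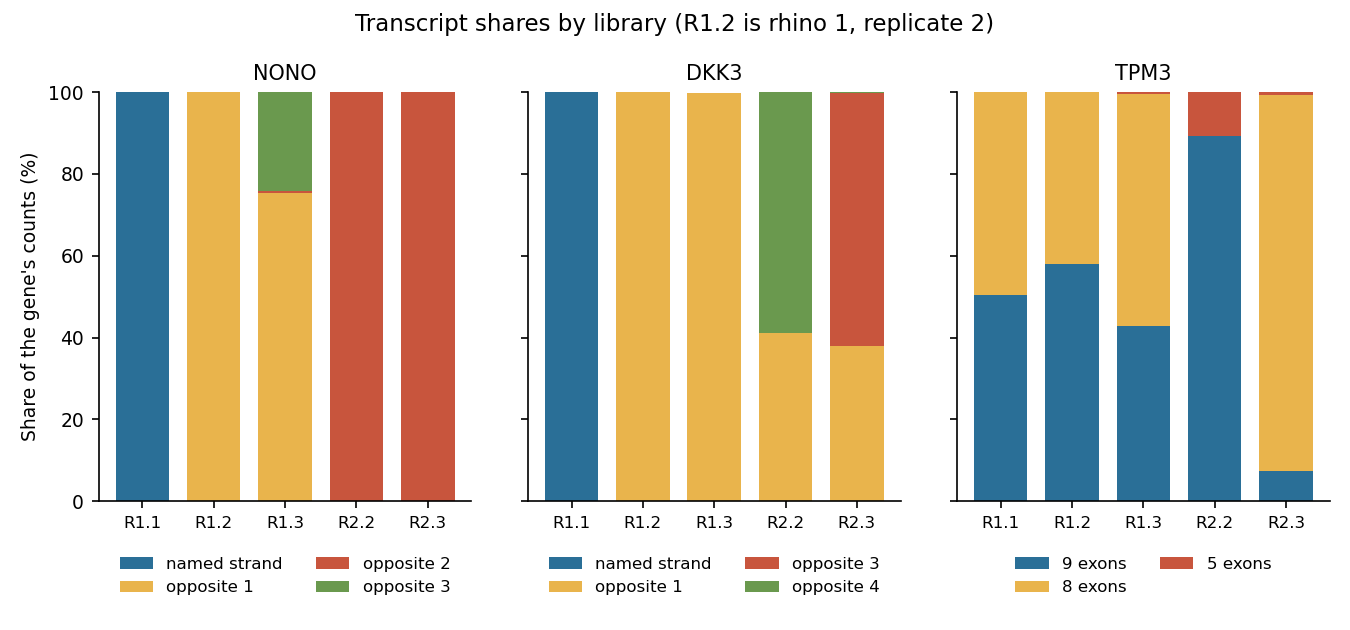
Transcript shares of NONO, DKK3 and TPM3 in 5 libraries, each bar the counts of 1 gene on the strand model that library used (transcripts under 1% in every library are not drawn). NONO changes its transcript between the animals, DKK3 keeps 1 transcript in all 4 opposite-strand libraries and adds a different one in each rhino 2 library, and TPM3 is divided in rhino 1 and one-sided in each rhino 2 library.

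At the gene level, the animals were compared over all 6 libraries, with the counts of both strands of a locus added. Of 2105 members tested, 14 (0.665%) passed an adjusted p of 0.05 with edgeR's quasi-likelihood test, beside 0.551% of all 8532 loci tested. Of the 14, 8 were higher in rhino 2 and 6 lower, while over all loci 21 (0.246%) were higher and 26 (0.305%) lower. The count of members rested on the settings. It was 0 of 142 with the genes as deposited and 80 of 2463 with no filter on low counts. DESeq2 gave 163 of 2105, and edgeR with the replicate number as a block gave 0. Over all loci these 4 counts were 0, 353 of 16230, 626 of 8532 and 0. Without rhino 1 replicate 1 the count of members was 12, without rhino 1 replicate 2 it was 2, without rhino 1 replicate 3 it was 0, and without any single library of rhino 2 it was 1. Over all loci the counts were 49, 4, 0 and 1 in the same order. CPM did not overlap between the animals in 528 members (25.1%), beside 24.4% of all loci, and the median log2 fold change (rhino 2 over rhino 1) was 0.0463 in members and 0.0428 in all loci.

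The widest differences among the 14 were in GSTA1 and NR4A1. GSTA1, a glutathione S-transferase of steroid-making cells whose name stood on 3 loci, had 1301, 882 and 2223 CPM across rhino 1 replicates 1, 2 and 3, against 51.8, 31.3 and 45.4 CPM across those of rhino 2, a log2 fold change of -5.00 ± 0.45 (SE; adjusted p = 0.018, edgeR's quasi-likelihood test). The orphan nuclear receptor gene NR4A1 stood at 62.1, 56.5 and 47.6 CPM against 1568, 1174 and 1400 CPM, in the same order, a log2 fold change of 4.73 ± 0.24 (adjusted p = 0.00205, edgeR's quasi-likelihood test). The groups did not overlap for either gene, but the genes of this and the following paragraphs were chosen by their difference.

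Among the members lower in rhino 2, KIF23, a kinesin of cytokinesis, ranged from 113 to 148 CPM in the rhino 1 libraries and from 9.27 to 15.6 CPM in those of rhino 2, with a log2 fold change of -3.15. TPX2, a spindle assembly gene on a locus that also carried the name MYLK2, had 314 to 442 CPM against 47.9 to 93.8 CPM (-2.24). RNH2A (RNASEH2A, which removes RNA from DNA), on a locus shared with THSD8, had 92.2 to 108 CPM against 16.4 to 23.2 CPM (-2.24), and SMTN, a smooth muscle cytoskeletal gene, 77.3 to 134 CPM against 7.11 to 15.8 CPM (-3.09). The animals did not overlap in any of these 4 genes, with SEs of 0.30 to 0.42 and adjusted p-values of 0.0192 to 0.042 (edgeR's quasi-likelihood test).

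The other members past the threshold were higher in rhino 2, except MAP1A. CO4A3 (COL4A3), a basement membrane collagen, rose from 540 to 767 CPM in rhino 1 to 2212 to 2512 CPM in rhino 2, a log2 fold change of 1.88, and GPC6, a cell surface proteoglycan, from 48.2 to 80.3 CPM to 231 to 262 CPM (1.92). SCUB2 (SCUBE2, a secreted protein) rose from 89.2 to 93.8 CPM to 376 to 489 CPM (2.33), PTPRG, a receptor phosphatase, from 44.4 to 64.0 CPM to 141 to 231 CPM (1.92), WSB1, part of a ubiquitin ligase, from 495 to 533 CPM to 1569 to 2050 CPM (1.92), and GPSM1, a regulator of G proteins, from 21.4 to 35.7 CPM to 125 to 296 CPM (3.00). The groups did not overlap in any of these 6 genes, whose SEs were 0.19 to 0.39 and whose adjusted p-values were 0.0123 to 0.0483 (edgeR's quasi-likelihood test). MRC2, a collagen receptor, and MAP1A, a microtubule protein gene, had log2 fold changes of 1.68 and -1.49.

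**Figure D5:**
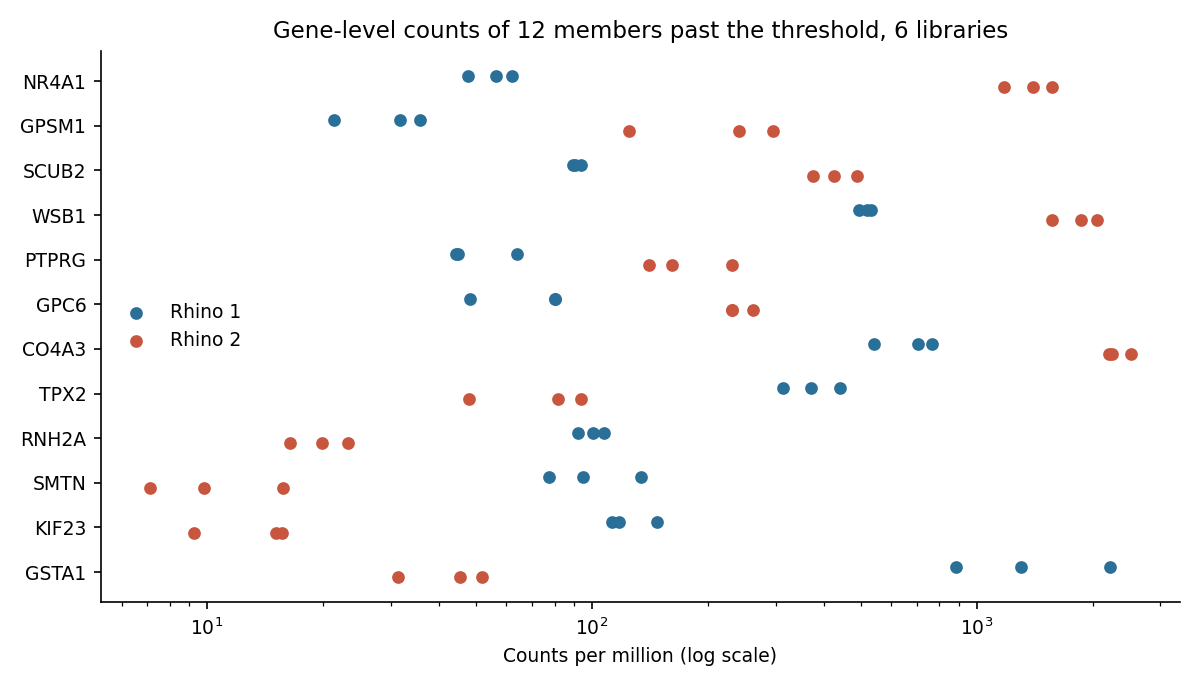
CPM of the 12 members with the widest log2 fold changes among the 14 past the threshold, 1 point per library on a log axis (blue rhino 1, red rhino 2). The 12 were chosen by their difference, and their 3 libraries of rhino 1 and 3 of rhino 2 do not overlap, as in 24.4% of all loci tested.

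Isoforms of some of the called genes are given here. In WSB1 the same 9-exon transcript led in rhino 1 replicates 2 and 3 (76.3% and 67.7%) and in rhino 2 replicate 2 (86.1%), while a 10-exon transcript led in rhino 2 replicate 3 (51.9%) and had 0 counts in the other 3 of these libraries. In CO4A3 a 38-exon transcript held 100% and 55.6% in rhino 1 and 99.4% and 54.02% in rhino 2, and the animals overlapped. In SCUB2 a transcript held 0% and 50.7% of 60 and 136 counts in rhino 1 replicates 2 and 3. It held 95.6% and 85.4% of 344 and 405 counts in rhino 2 replicates 2 and 3. The animals did not overlap there, and the usage test gave SCUB2 an adjusted p of 0.9998 (diffSpliceDGE). GSTA1, KIF23, RNH2A and SMTN had under 50 counts in each transcript-level rhino 2 library.

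By list, 0 members passed the gene-level test of edgeR in 6 of the 7 lists, and in metabolism and steroidogenesis the 1 member called was GSTA1, lower in rhino 2. A log2 fold change above 0 was found in 1128 of all 2105 members tested. It was found in 31 of 45 members of splicing and RNA binding (median 0.25), 17 of 29 with well-known isoforms (0.16), 15 of 26 of transcription and chromatin (0.11) and 2 of 3 of metabolism and steroidogenesis (0.19). In cytoskeleton and cell adhesion it was found in 7 of 26 (-0.46), in signalling in 6 of 16 (-0.13) and in extracellular matrix and secreted proteins in 4 of 9 (-0.13), and no test was made of these counts. Some granulosa markers differed, in both directions: CP19A was at 892 to 3418 CPM in rhino 1 against 180.5 to 260 CPM in rhino 2, INHBA at 373 to 802.5 against 165 to 213 CPM, INHBB at 2208 to 4980 against 640 to 1496 CPM, and MIS at 78.4 to 90.7 against 292 to 433 CPM. All others of the 13 granulosa markers overlapped between the animals, as INHA did (8337 to 12760 against 5264 to 8504 CPM). INHBB had an adjusted p of 0.156 (edgeR's quasi-likelihood test). Markers of other cells also differed in level: the summed endothelial markers were at 57.3 to 104.7 CPM in rhino 1 and 169 to 257 CPM in rhino 2, nearly all of it TIE2, with CADH5 at 0 in every library. The summed smooth muscle markers were at 260 to 335 and 540 to 917 CPM, but within them MYH11 was higher in rhino 2 and CNN1 lower (76.9 to 149 against 14.2 to 24.1 CPM), and DESM was at 0. LSHR, the only theca marker with counts, was at 56.5 to 180 CPM in rhino 1 and 21.3 to 38.0 CPM in rhino 2, and the summed leukocyte markers were at 0 to 43.0 and 0 to 26.9 CPM. HBB, the beta-globin gene of red blood cells on a locus shared with HBE2, had 3095 ± 1190 and 609 ± 212 CPM (SD, n = 3 each). The part of these markers and cells in the gene-level differences was not tested, and fewer cells of a type and less RNA per cell cannot be told apart in such samples.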

How the data were processed

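Per the file headers and values, the authors deposited whole-number read counts, not normalized, per assembled transcript for 5 libraries and per assembled gene for rhino 2 replicate 1, with a table of transcript positions. The submitters' processing notes name Trimmomatic, HISAT2 and StringTie and give no versions. The library kit was NEBNext Ultra II, per the labels' protocols, while neither build nor strandedness is stated (not given in the sources used here). Scaffold coordinates are those of the deposited table. Columns of other samples numbered 0.

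Unnamed genes were joined to named genes on the opposite strand with bedtools 2.31.1, at 50% of the shorter exonic length, and 675 unnamed genes to each other, choices made after the strand pattern of the counts was seen. A library's shares were taken on the strand model with more counts, at 50 or more counts of the gene, with 95% Wilson intervals that cover counting error only. CPM used the library total. An exon was called skipped where another transcript of the same model joined its flanking splice sites. Loci were tested with the two-sided quasi-likelihood test of edgeR 4.0.16 (R 4.3.3), after filterByExpr and TMM scaling, over all 8532 loci and transcript usage with edgeR's diffSpliceDGE, both with Benjamini-Hochberg adjustment at 0.05. DESeq2 1.42.0 was an alternative. The tests were tried on simulated counts.

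Members, the 7 lists (317 symbols, matched to the gene names in the files) and tests were chosen with earlier results of these data known. Genes were named by a rule: the 10 members with most transcripts, the 12 with the highest CPM and the 8 widest differences in share without overlap between the animals. The rule also took up to 12 past the gene-level threshold, up to 12 with well-known isoforms, the 5 most and 5 least even, and up to 4 per list, together with the granulosa markers that were members. A few of the selected genes are not reported here. Pairing by replicate number was checked by the correlation of deviations from the animal means.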

Additional observations from a re-analysis of the deposited data

How the results depend on the processing

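The 14 members past the gene-level threshold became 17 with DESeq2 size factors, 80 with no filter on low counts, 163 with DESeq2, 0 with the genes as deposited and 6 when unnamed genes were not joined to each other, a choice added after seeing the data. Over all loci the 47 past the threshold became 63, 353, 626, 0 and 19 in the same order. Leaving out 1 library gave between 0 and 12 members, and between 0 and 49 loci in all. Beside these counts of 0 by edgeR's quasi-likelihood test, 63 members had an unadjusted p under 0.05 as deposited (of 142 tested), 239 without rhino 1 replicate 3 (of 2116) and 252 with the replicate block (of 2105). In the main test 295 of 2105 members and 1101 of 8532 loci had such a p, and the all-loci counts of the alternatives are not given here. Same-numbered libraries deviated together with r of 0.21, 0.13 and 0.01 in replicates 1, 2 and 3, and differently numbered ones with r of -0.18 to 0.02. The values of replicates 1 and 2 were thus the highest of all pairs. The main tests did not take the numbers to pair the samples, and whether the numbers mark a shared batch was not tested. With the replicate number as a block 0 members passed at the gene level and 0 in transcript usage. The 14 kept their direction under each alternative run per gene (all of these but the genes as deposited), and in 93 cases a gene no longer passed. In transcript usage 0 members passed under DESeq2 size factors, no filter, the F test, matched intron chains in 5 libraries, genes with 1 name only (added after seeing the data) and each library left out, where the lone library of an animal is assumed to vary like the others. Where no library was left out, 9 to 38 members had an unadjusted p under 0.05 by diffSpliceDGE, and the counts over all models are not given here. With DESeq2, 14 of 283 members passed, beside 19 of 409 models in all. The cause was not tested. The number of members was 2548 at any overlap of the strands, 2513 at 80%, 1896 on own transcripts, 2349 without genes of more than 1 name and 778 at a minimum of 4 isoforms. The median over 224 members of the mean top share was 85.7%, and between 79.7% and 94.0% under the alternatives, highest without rhino 1 replicate 1. At a minimum of 20 counts, also added later, 178 skipped exons were measured in place of 109. Depth limited shares to 856 members in rhino 2 replicate 2, the fewest of the 5 libraries.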
